A study of Mus musculus with 10 samples.

Results

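The 10 keratin genes described here are those of basal, hair-follicle and simple epithelia: Krt5, Krt14 and Krt15 of the basal layer, Krt17 and Krt6a of skin appendages and wounded skin, Krt10 of the suprabasal layers, and Krt7, Krt8, Krt18 and Krt19 of simple epithelia. They were taken by gene symbol from the expression tables of a mouse basal cell carcinoma (BCC) line, and all 10 were listed among the 17658 genes of one table and among the 16719 genes of the other. The cells were ASZ001, 1 established murine BCC line, so all groups share the same cells, and the labels give no genotype for it. In the first experiment 3 libraries from cells given 10 µM SB431542, an inhibitor of the TGFβ receptor kinase ALK5, stood against 3 DMSO libraries. In the second, 2 libraries from cells given 20 µM T-5224, an inhibitor of the transcription factor AP-1, stood against 2 DMSO libraries of their own. All 10 cultures, controls included, were held for 24 h in low-serum, low-calcium medium, and the replicates of a condition were separate biological samples. The comparisons ask which genes of these cells depend on TGFβ signalling and which on AP-1.

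Keratins are the intermediate filament proteins of epithelial cells. A filament is built from pairs of a type I keratin (here Krt14, Krt15, Krt17, Krt10, Krt18 and Krt19) and a type II keratin (here Krt5, Krt6a, Krt7 and Krt8), and each epithelium has its favoured pair: KRT5 with KRT14 in basal keratinocytes, KRT6A with KRT16 or KRT17 in wounded skin and hair follicles, KRT10 in differentiating keratinocytes, and KRT8 with KRT18 in simple epithelia such as gut and gland. BCC grows from basal and follicular keratinocytes, and AP-1 is a known regulator of many epidermal genes.

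Expression is given in RPKM, the number of reads scaled to the length of the gene (per kilobase) and to the depth of the library, so levels of different genes can be set side by side within a library. The 2 tables were normalised separately, and each inhibitor was set only against the DMSO libraries of its own table. Tests were made with limma on log2(RPKM + 0.5) over all genes with a mean of at least 1 RPKM, 10842 in the SB431542 table and 10809 in the T-5224 table, with p-values adjusted over all of them. Fold changes are on that scale, which understates the change of low genes. In bulk RNA, fewer cells of a type and less RNA per cell cannot be told apart.

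The keratins of basal epidermis and of hair follicles made up nearly all keratin RNA of ASZ001 cells, and the keratins of simple epithelia were at or near 0. With T-5224, Krt5, Krt14, Krt15, Krt17 and Krt6a each fell by more than 4-fold, and Krt10 fell by less. With SB431542, Krt14, Krt17 and Krt5 fell by less than 2-fold, Krt15 rose, and Krt6a and Krt10 did not pass the test. Among the 6 keratins that were expressed highly enough to test, 5 passed the test with T-5224 at an adjusted p under 0.05 and were lower by more than 2-fold, against 10.6% of all genes tested, and 0 were higher, against 10.4% of all genes. At any fold 6 were lower, against 39.4%, and 0 were higher, against 40.3%. The 2 groups did not overlap for 6 of 6, all lower, where 44.5% of all genes were lower and 45.1% higher without overlap. With SB431542, 0 of the 6 were lower by more than 2-fold, against 0.581% of all genes, and 0 were higher, against 0.231%. By limma's unadjusted p under 0.05 the counts were 0 and 0 as well, against 0.673% and 0.240%. At any fold, 3 were lower with SB431542 against 10.0% of all genes, and 1 was higher against 10.2%. The groups did not overlap for the same 4 genes, where 21.3% of all genes were lower and 23.9% higher without overlap. All 6 tested keratins averaged at least 1 RPKM in both groups of both experiments, so none entered the test through 1 group alone.

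**Figure D1:**
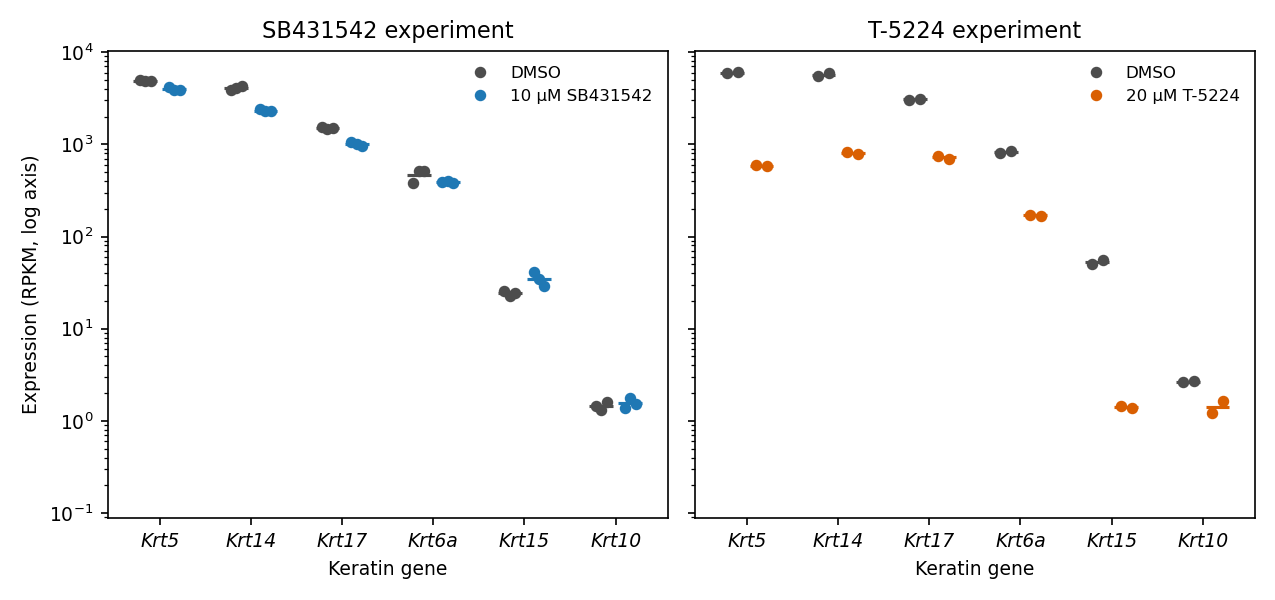
Level of the 6 tested keratins in each library, in RPKM on a log axis, with DMSO libraries in grey, SB431542 libraries in blue and T-5224 libraries in orange; points are libraries and lines are group means. Each of the 6 lies lower in both T-5224 libraries than in both DMSO libraries, and with SB431542 the groups of Krt6a and Krt10 overlap.

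Krt5 (mm9 chr15:101537501-101543322, minus strand) encodes the type II keratin of the basal layer. In the first experiment it was at 5007, 4851 and 4809 RPKM in DMSO and at 4161, 3855 and 3875 RPKM with SB431542. Every treated library was below every DMSO library, yet Krt5 held the highest RPKM of all genes in all 6 libraries. It fell by 0.30 on the log2 scale (SE 0.06, limma adjusted p = 0.0176, n = 3 against 3). The call was lost when SB431542 replicate 1 (limma adjusted p = 0.0530), replicate 2 (0.0985) or replicate 3 (0.0854) was left out, and with no filter on low values (0.310), and the direction was kept. In the second experiment Krt5 was at 5916 and 6087 RPKM in DMSO and at 599 and 579 RPKM with T-5224. The groups lay far apart, and Krt5 went from rank 1 by RPKM to rank 42. It fell by 3.35 on the log2 scale (SE 0.05, limma adjusted p = 1.06e-12, n = 2 against 2), which is 10.2-fold.

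Krt14 (mm9 chr11:100064476-100068862, minus strand), the type I partner of Krt5, was at 3896, 4061 and 4270 RPKM in DMSO and at 2409, 2270 and 2281 RPKM with SB431542. The groups did not overlap, and Krt14 went from rank 2 in all 3 DMSO libraries to ranks between 5 and 6. It fell by 0.81 on the log2 scale (SE 0.06, limma adjusted p = 4.02e-04), with a 95% interval from -0.96 to -0.66, so it was short of a 2-fold change. In the T-5224 table it was at 5468 and 5948 RPKM in DMSO and at 826 and 791 RPKM with T-5224. Both treated libraries were far below both DMSO libraries, at ranks 23 and 24. The fall was 7.05-fold (log2 fold change -2.82, SE 0.06, limma adjusted p = 8.73e-12).

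Krt5 and Krt14 had the highest RPKM among the keratins of untreated cells, and the 250 bases before the annotated start of each gene are shown for the motifs they hold. They were read from the mm9 genome at the GENCODE starts, on the minus strand, 5′ to 3′, at chr11:100068863-100069112 for Krt14 and chr15:101543323-101543572 for Krt5. Capitals mark motif matches.
Krt14: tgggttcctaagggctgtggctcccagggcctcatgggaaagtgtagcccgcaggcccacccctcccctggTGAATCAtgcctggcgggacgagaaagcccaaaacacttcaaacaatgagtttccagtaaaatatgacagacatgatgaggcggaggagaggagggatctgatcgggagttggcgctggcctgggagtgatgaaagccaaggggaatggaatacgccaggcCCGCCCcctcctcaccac
Krt5: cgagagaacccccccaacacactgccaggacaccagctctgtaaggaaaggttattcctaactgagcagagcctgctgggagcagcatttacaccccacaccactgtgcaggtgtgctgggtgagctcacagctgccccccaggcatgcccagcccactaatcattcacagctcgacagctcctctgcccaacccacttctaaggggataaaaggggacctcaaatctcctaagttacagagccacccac
The first capitals in Krt14 lie 179 bases before the start and match the letters searched for AP-1, which were TGANTCA with N for any base. The second lie 18 bases before the start and match, on the reverse strand, the letters searched for Sp1, which were GGGCGG. The other motifs searched, on both strands, were the cyclic AMP response element TGACGTCA, the SMAD palindrome GTCTAGAC, the AP-2 site GCCNNNGGC and the TATA box as TATAAA. None of the matches overlapped another, and Krt5 had no match to any of them.

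Among the 10 keratins, 2 held TGANTCA, Krt14 and Krt15, both with A as the middle base and neither with the C or G of the usual AP-1 site. Of 22370 starts of protein-coding genes in windows of the same length, 6.0% held the same letters. The AP-2 letters were found before 3 keratins (Krt15, Krt18 and Krt7), against 14.8% of starts, and the TATA letters before 3 (Krt10, Krt15 and Krt17), against 12.3%. The Sp1 letters stood only before Krt14, against 39.6% of starts, and no keratin had the CRE or SMAD letters, which 1.91% and 0.143% of starts held. A match describes these letters in this window and is not evidence of binding.

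Krt15 (mm9 chr11:99993072-99997263, minus strand), a type I keratin of basal cells and of hair follicle bulge cells, was expressed at far lower levels than Krt5 and Krt14. It was at 26.0, 22.9 and 24.6 RPKM in DMSO and at 41.1, 34.4 and 29.0 RPKM with SB431542. All 3 treated libraries were above all 3 DMSO libraries, and Krt15 was the 1 keratin of the 6 that rose. The rise was 0.49 on the log2 scale (SE 0.12, limma adjusted p = 0.0291), a 1.40-fold change. It no longer passed without DMSO replicate 2 (limma adjusted p = 0.0831), DMSO replicate 3 (0.0582), SB431542 replicate 1 (0.0722) or SB431542 replicate 2 (0.0972), nor with no filter on low values (0.0614), with a log2 fold change between 0.36 and 0.61 over the 6 fits that each left out a library.

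With T-5224, Krt15 went the other way. It was at 50.8 and 55.1 RPKM in DMSO and at 1.44 and 1.40 RPKM with T-5224, which left about 117 reads or more in each library. The ratio of the group means was 37.4. The log2 fold change was -4.80 (SE 0.08, limma adjusted p = 9.55e-13), the largest among the keratins, and 0.0555% of all genes tested fell by more.

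**Figure D2:**
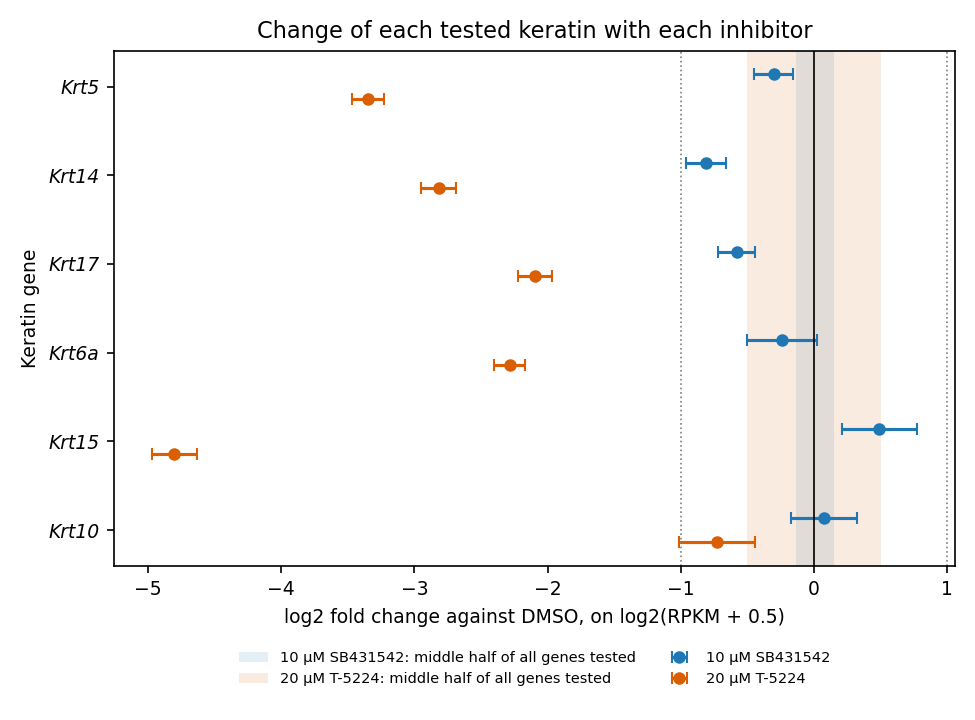
Log2 fold change of each tested keratin against DMSO with SB431542 (blue) and T-5224 (orange), with 95% intervals from limma; shaded bands hold the central 50% of all genes tested in each experiment and dotted lines mark 2-fold changes. Krt15 lies at 0.49 with SB431542 and at -4.80 with T-5224, and the other basal and appendage keratins lie left of 0 with both.

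Krt17 (mm9 chr11:100117531-100122343, minus strand) encodes a type I keratin of hair follicles, of wounded skin and of BCC. It was at 1532, 1484 and 1519 RPKM in DMSO and at 1062, 1017 and 953 RPKM with SB431542. Without overlap between the groups, it fell by 0.58 on the log2 scale (SE 0.06, limma adjusted p = 0.00131). In the second experiment it was at 3035 and 3134 RPKM in DMSO, rank 4 in both libraries, and at 748 and 695 RPKM with T-5224. It fell 4.28-fold (log2 fold change -2.10, SE 0.06, limma adjusted p = 5.08e-11), the smallest fall among the basal and appendage keratins.

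Krt6a (mm9 chr15:101520363-101524738, minus strand), a type II keratin of follicles and of activated keratinocytes, was at 383, 510 and 511 RPKM in DMSO and at 394, 402 and 380 RPKM with SB431542. DMSO replicate 1 lay within the treated range and the other 2 above it. The log2 fold change of -0.24 (SE 0.11) did not pass the test (limma adjusted p = 0.165). Without DMSO replicate 1 it was -0.38 and passed (limma adjusted p = 6.40e-05). That library lay farthest from its group over all genes, with an SD of 0.272 in log2 units against 0.123 to 0.190 for the other 5, and it held 770 RPKM of the ribosomal RNA gene Rn45s against 1868 to 2229 in the others. Whether this bears on Krt6a was not tested.

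With T-5224, Krt6a was at 172 and 166 RPKM, against 802 and 850 RPKM in DMSO. Both treated libraries were far below the DMSO libraries, and the fall was 4.87-fold (log2 fold change -2.28, SE 0.05, limma adjusted p = 1.63e-11). Krt6a has near copies in the genome. Of its 50-base windows, 49.0% are found in another annotated keratin, 44.0% in Krt6b, and how the authors placed reads that match more than 1 gene is not given in the sources used here. The share was 14.4% for Krt14, 7.38% for Krt5, 3.99% for Krt17, 0.666% for Krt15 and 0 for Krt10, Krt7, Krt8, Krt18 and Krt19.

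Krt10 (mm9 chr11:99246568-99250678, minus strand), the type I keratin of differentiating suprabasal keratinocytes, was barely expressed. It was at 1.44, 1.32 and 1.59 RPKM in DMSO and at 1.37, 1.78 and 1.52 RPKM with SB431542, which overlap (log2 fold change 0.07, SE 0.11, limma adjusted p = 0.650). The 95% interval of that change ran from -0.18 to 0.33. In the T-5224 table it was at 2.66 and 2.69 RPKM in DMSO and at 1.22 and 1.64 RPKM with T-5224. Krt10 fell by 0.73 on the log2 scale (SE 0.13, limma adjusted p = 2.75e-04), under the 2-fold limit, and its level rested on about 109 to 220 reads a library over both tables.

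The simple-epithelial keratins were under the filter in both tables. Krt8 (mm9 chr15:101827142-101834773, minus strand) and Krt18 (mm9 chr15:101858647-101862457, plus strand), which pair with each other, had about 2 reads or fewer in every library. Krt8 was listed at 0 in 5 of 6 libraries of the SB431542 table and 1 of 4 of the T-5224 table, and Krt18 in 4 of 6 and 3 of 4. The highest level of either was 0.035 RPKM, in 1 DMSO library. A fall of these genes was therefore not detectable at this depth, and neither rose above about 2 reads in a treated library.

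Krt7 (mm9 chr15:101241474-101260744, plus strand), a type II keratin of ducts and simple glands, was listed at 0 in 4 of 6 and 2 of 4 libraries and reached at most 0.104 RPKM, about 15 reads or fewer. Krt19 (mm9 chr11:100002124-100009979, minus strand), a type I keratin of simple epithelia that is also made in hair follicles, was the highest of the 4 in every DMSO library. It was at 0.180, 0.178 and 0.081 RPKM in DMSO against 0.145, 0.157 and 0.022 RPKM with SB431542, which overlap. In the second experiment it was at 0.374 and 0.166 RPKM in DMSO against 0.042 and 0 RPKM with T-5224, with both treated libraries below both DMSO libraries. With no filter on low values, the log2 fold change of Krt19 with T-5224 was -0.55 (limma adjusted p = 0.0258), on about 19 reads or fewer a library, and none of the other 3 simple keratins passed in either experiment.

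The order of the keratins by RPKM differed between DMSO and T-5224 and was the same in DMSO and SB431542. In DMSO of the first experiment it was Krt5, Krt14, Krt17, Krt6a, Krt15 and Krt10, with no overlap between neighbours, and it held in all 3 SB431542 libraries. In DMSO of the second the ranges of Krt5 and Krt14 overlapped, and the rest of the order was the same. With T-5224, Krt14 was highest at 826 and 791 RPKM, followed by Krt17 at 748 and 695 RPKM and Krt5 at 599 and 579 RPKM, again without overlap between these neighbours. Krt15 and Krt10, which lay far apart in DMSO, overlapped with T-5224 at 1.40 to 1.44 and 1.22 to 1.64 RPKM.

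**Figure D3:**
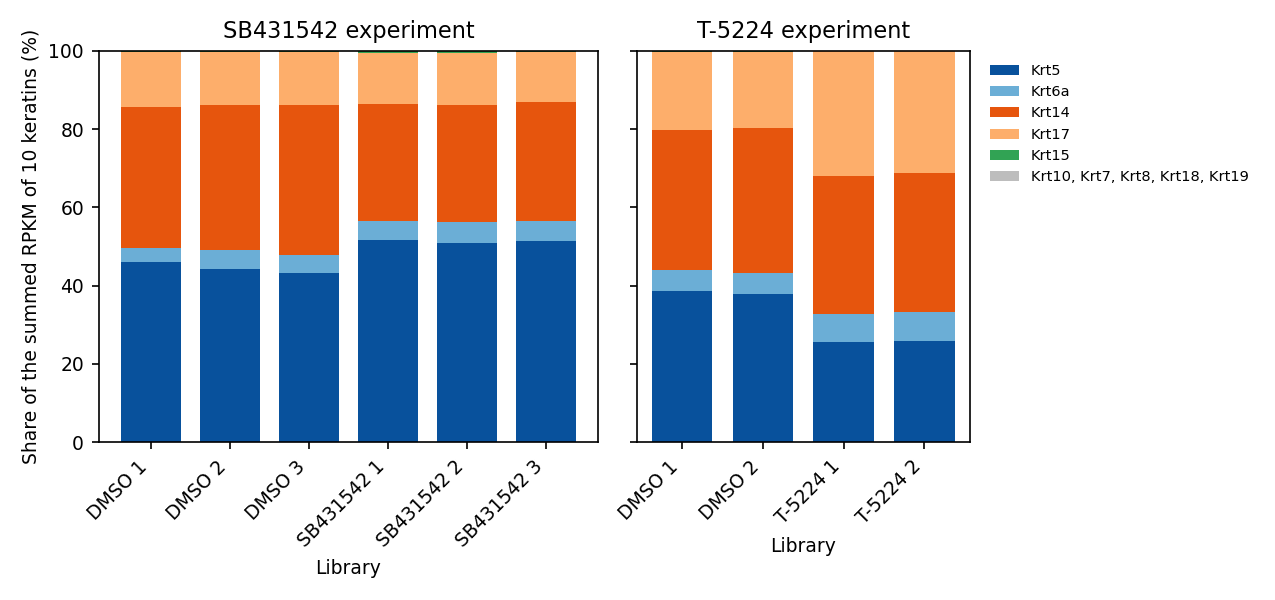
Share of each keratin in the summed RPKM of the 10 keratins, in percent, for each library of the SB431542 experiment (left) and the T-5224 experiment (right). Type II keratins are drawn in blue at the base of each bar; the share of Krt5 is larger with SB431542 than in DMSO and smaller with T-5224, where that of Krt17 is larger.

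The 10 genes together held 98.5% to 99.3% of the RPKM of all keratins in each library, where 38 keratins were listed in the SB431542 table and 40 in the T-5224 table. Their share of the RPKM of all genes was 2.84% ± 0.0225 (SD, n = 3) in DMSO and 1.95% ± 0.0653 (SD, n = 3) with SB431542. In the T-5224 experiment the share was 4.55% ± 0.165 (SD, n = 2) in DMSO and 0.641% ± 0.0102 (SD, n = 2) with T-5224. Groups did not overlap in either experiment. An exact permutation test over libraries, two-sided, cannot go below p = 0.1 with 3 against 3 or p = 0.333 with 2 against 2, and these were the values found for both shares.

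The summed RPKM of type II keratins and that of type I keratins did not change in step, but single genes did not split by type. With T-5224 the log2 fold change was -3.35 for Krt5 and -2.28 for Krt6a, both type II. It was -2.82 for Krt14, -2.10 for Krt17 and -4.80 for Krt15, all type I. With SB431542 the type I gene Krt15 rose, while Krt14 and Krt17 fell. The summed RPKM of type II over that of type I was 0.988, 0.963 and 0.915 in the DMSO libraries and 1.30, 1.28 and 1.30 with SB431542. The treated libraries lay above 1 and the DMSO libraries below it (exact permutation p = 0.1, the smallest possible). In the T-5224 experiment the ratio was 0.785 and 0.759 in DMSO and 0.489 and 0.50 with T-5224, so it was lower in both treated libraries (exact permutation p = 0.333, the smallest possible). The ratio of Krt5 to Krt14 went from 1.20 ± 0.0797 to 1.71 ± 0.0167 (SD, n = 3) with SB431542 and from 1.05 ± 0.0414 to 0.729 ± 0.00486 (SD, n = 2) with T-5224. The ratio was thus above its controls with one inhibitor and below them with the other, and the difference between the experiments was not tested.

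Krt5 made up 44.6% ± 1.5 (SD, n = 3) of the summed keratin RPKM in DMSO and 51.3% ± 0.401 with SB431542, and Krt14 37.1% ± 1.21 and 30.04% ± 0.252. Krt17 was at 13.8% ± 0.302 and 13.1% ± 0.376. In the T-5224 experiment the share of Krt5 was 38.3% ± 0.614 (SD, n = 2) in DMSO and 25.7% ± 0.303 with T-5224, and that of Krt17 19.7% ± 0.264 and 31.5% ± 0.547. Thus Krt17, which fell in RPKM with T-5224, took a larger share of a smaller keratin pool. Simple keratins made up 0.00176% ± 0.000797 in DMSO and 0.00198% ± 0.00122 with SB431542 (SD, n = 3), and 0.00208% ± 0.00107 in DMSO and 0.00248% ± 0.000284 with T-5224 (SD, n = 2), with overlap in both experiments (exact permutation p = 0.9 and p = 1).

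**Figure D4:**
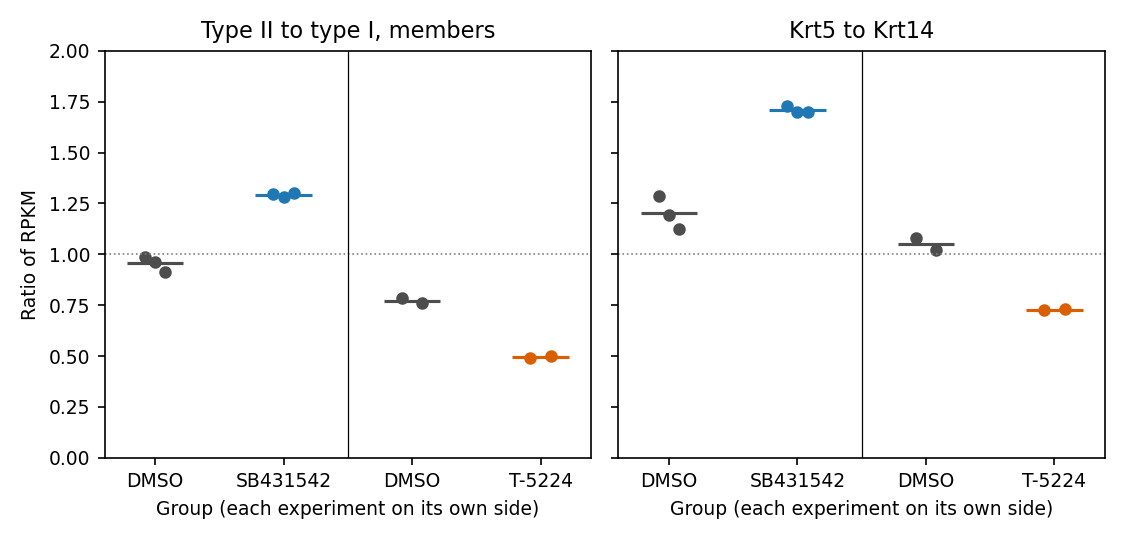
Ratio of summed type II to type I keratin RPKM (left) and of Krt5 to Krt14 (right) in each library, with group means as lines and a dotted line at 1. Both ratios are higher with SB431542 and lower with T-5224 than in the DMSO libraries of the same experiment, with no overlap.

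Few other keratins reached the filter, and the highest of them, Krt16, lay above Krt15 in every library. Of the 44 other keratin genes looked up, 27 were listed in the SB431542 table and 5 of them reached the filter. Krt16, a type I keratin of wounded skin and a partner of Krt6a, was at 62.4, 82.3 and 81.5 RPKM in DMSO and 49.7, 38.7 and 35.0 RPKM with SB431542. It fell by 0.87 on the log2 scale (SE 0.15, limma adjusted p = 0.00902), and 11.9% of its 50-base windows are shared with Krt14. Krt6b, the near copy of Krt6a, was at 7.74, 17.9 and 12.6 RPKM in DMSO and 8.03, 14.4 and 9.86 RPKM with SB431542 and did not pass (limma adjusted p = 0.680). Krt80, Krt85 and Krt90 lay between 1.11 and 3.47 RPKM in all 6 libraries and did not pass either, with limma adjusted p from 0.0848 for Krt80 to 0.940 for Krt85.

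In the T-5224 experiment 30 of the 44 were listed and 7 reached the filter. Krt16 was at 141 and 147 RPKM in DMSO and at 22.6 and 20.6 RPKM with T-5224, and fell by 2.71 on the log2 scale (SE 0.06, limma adjusted p = 1.18e-11). Krt6b was at 33.4 and 17.7 RPKM in DMSO and at 8.86 and 5.81 RPKM with T-5224 (log2 fold change -1.69, SE 0.24, limma adjusted p = 4.03e-05). The other 5, Krt90, Krt75, Krt85, Krt13 and Krt42, averaged over 1 RPKM only in DMSO, so their lower level with T-5224 was in part a condition of entering the test. They lay between 2.08 and 5.49 RPKM in DMSO and between 0.068 and 0.855 RPKM with T-5224. Krt80 was under the filter there, at 0.913 and 1.67 RPKM in DMSO and 0.512 and 0.739 RPKM with T-5224.

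Genes of desmosomes, of hemidesmosomes and of other proteins linked to keratin filaments or the cytoskeleton were gathered in a list of 16, here called anchor genes. This list and those that follow were chosen with earlier results of these data known, so their counts only describe them. With SB431542 all 16 were tested, 6 fell, against 10.0% of all genes, and 1 rose, against 10.2%, by limma's adjusted p, with a median log2 fold change of -0.06 beside 0.01 for all genes. The lowest were Pkp1, a desmosomal plakophilin, which went from 149 ± 9.84 to 97.0 ± 3.12 RPKM (SD, n = 3), Dst, the hemidesmosomal linker that binds the KRT5 and KRT14 filaments, from 281 ± 19.3 to 189 ± 1.49 RPKM, and Col17a1, a hemidesmosomal collagen, from 740 ± 29.2 to 508 ± 5.26 RPKM. They fell by 0.61, 0.57 and 0.54 on the log2 scale. Evpl, which encodes envoplakin, rose from 23.6 ± 1.06 to 30.3 ± 0.763 RPKM.

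With T-5224, 15 of the 16 anchor genes were tested, 13 were lower, against 39.4% of all genes, and 1 was higher, against 40.3%, with a median of -1.08 beside 0.00 for all genes. Of these, 8 were lower by more than 2-fold, against 10.6% of all genes. Dst went from 252 ± 23.6 to 47.5 ± 2.08 RPKM (SD, n = 2), Ppl, which encodes periplakin, from 13.1 ± 0.117 to 3.02 ± 0.0488 RPKM, and Col17a1 from 723 ± 82.3 to 199 ± 2.41 RPKM. The gene that rose was Pkp2, another plakophilin, from 2.23 ± 0.170 to 6.18 ± 0.252 RPKM, which is 1.29 on the log2 scale.

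Genes linked to keratinocyte differentiation, many but not all of them of the cornified layer, changed in both directions. With SB431542, 9 of 34 were tested, 3 were lower (Ly6d, a surface protein, by 1.07 on the log2 scale, Sfn, which encodes 14-3-3σ, by 0.78, and Abca12, a lipid transporter, by 0.54) and 2 were higher (Sprr1a, a cornified envelope protein, by 1.12, and Tgm5, a transglutaminase, by 0.34), against 10.0% and 10.2% of all genes. Ly6d averaged over 1 RPKM only in DMSO and Tgm5 only with SB431542, so the direction of each was in part a condition of entering the test. With T-5224, 13 were tested, of which 8 were lower, against 39.4% of all genes, and 4 higher, against 40.3%. Of the 13, 3 (Asprv1, Dsg1a and Calml3) averaged over 1 RPKM only in DMSO and 1 (Cdsn) only with T-5224, so they had in part to differ in that direction. Ly6d went from 18.4 ± 2.91 to 2.27 ± 0.112 RPKM (SD, n = 2), Calml3, a calmodulin-like protein of epithelia, from 3.30 ± 0.421 to 0.111 ± 0.00354 RPKM and Sbsn, which encodes suprabasin, from 187 ± 5.22 to 32.3 ± 1.52 RPKM. Abca12 rose from 3.22 ± 0.351 to 27.1 ± 1.05 RPKM, Cdsn, which encodes corneodesmosin, from 0.666 ± 0.139 to 6.80 ± 0.697 RPKM and Sprr1a from 7.40 ± 0.106 to 21.3 ± 0.0834 RPKM.

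**Figure D5:**
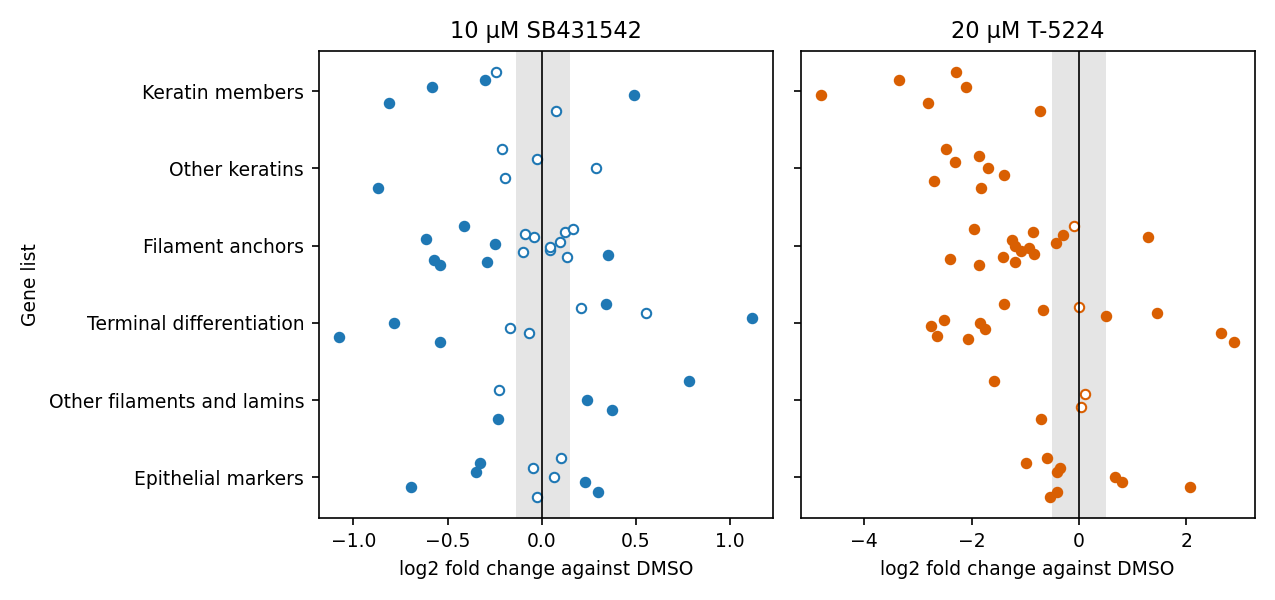
Log2 fold change against DMSO of each tested gene of the keratin members and 5 other lists, with SB431542 on the left and T-5224 on the right; filled points have a limma adjusted p under 0.05, and the grey band holds the central 50% of all genes tested. With T-5224 the 6 keratins lie left of 0 and the terminal differentiation genes lie on both sides.

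Of the intermediate filaments other than keratins, 5 of 16 were tested with SB431542, of which 3 rose, against 10.2% of all genes, and 1 fell, against 10.0%. Vim, which encodes the vimentin of mesenchymal cells, rose from 1.91 ± 0.0998 to 3.67 ± 0.590 RPKM (SD, n = 3) with SB431542, a change of 0.78 on the log2 scale (SE 0.11, limma adjusted p = 0.00434). Among the nuclear lamins, Lmnb1 rose by 0.37 and Lmnb2 by 0.24 with SB431542 and Lmna fell by 0.23. With T-5224, 4 were tested, of which 0 rose, against 40.3% of all genes, and 2 fell, against 39.4%. These were Lmna, from 298 ± 3.88 to 182 ± 1.68 RPKM (SD, n = 2), by 0.71 on the log2 scale, and Synm, which encodes synemin, by 1.57. Synm averaged over 1 RPKM only in DMSO, so its fall was in part a condition of entering the test. Vim was under the filter there, at 0.352 ± 0.0891 RPKM in DMSO and 0.130 ± 0.0191 RPKM with T-5224 (SD, n = 2). Bfsp1 was under the filter as well and lay the other way, at 0.236 and 0.128 RPKM in DMSO and 1.47 and 1.55 RPKM with T-5224.

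The label of a carcinoma line of epithelium was checked against markers. All 9 epithelial markers averaged at least 1 RPKM in both groups of both experiments, led by Perp, a desmosomal membrane protein, at a mean of 403 and 667 RPKM in DMSO. Their summed level was 835 to 847 RPKM in DMSO and 759 to 800 RPKM with SB431542, and 1085 to 1123 RPKM in DMSO and 770 to 817 RPKM with T-5224. Perp alone went from 403 to 321 RPKM with SB431542 and from 667 to 335 RPKM with T-5224, and the 9 markers moved both ways. By limma's adjusted p, 3 were lower with SB431542, against 10.0% of all genes, and 2 higher, against 10.2%. With T-5224, 6 were lower, against 39.4% of all genes, and 3 higher, against 40.3%. Of those higher, Cldn4 was at 4.93 and 4.95 RPKM in DMSO and at 24.6 and 20.6 RPKM with T-5224. Epcam was at 73.3 and 68.1 RPKM in DMSO and at 126 and 123 RPKM with T-5224. For Esrp1 the values were 66.6 and 66.9 RPKM in DMSO and 109 and 104 RPKM with T-5224. Among markers of other cells the highest in DMSO were Cd68, an immune marker, at 8.43 and 17.6 RPKM, Pecam1, an endothelial marker, at 5.75 and 11.3 RPKM, Dcn, a fibroblast marker, at 2.13 and 1.89 RPKM and Pmel, a melanocyte marker, at 0.217 and 0.252 RPKM.

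Summed immune markers, almost all Cd68, were at 16.7 to 18.6 RPKM in DMSO and 32.7 to 33.2 RPKM with T-5224. In the SB431542 experiment the sum was at 7.10 to 10.5 RPKM in DMSO and 7.76 to 8.35 RPKM with SB431542. Summed endothelial markers, almost all Pecam1, were at 10.9 to 11.97 RPKM in DMSO and lower with T-5224, at 4.13 to 4.67 RPKM. In the SB431542 experiment that sum was at 5.32 to 6.74 RPKM in DMSO and 2.74 to 2.99 RPKM with SB431542. Fibroblast markers summed to 2.45 to 2.64 RPKM in DMSO and 3.70 to 4.14 RPKM with SB431542, and to 2.54 to 2.58 and 2.65 to 2.84 RPKM in the T-5224 experiment, and melanocyte markers summed to at most 0.426 RPKM. All listed markers of these 4 cell types other than Cd68, Pecam1 and Dcn were under 1 RPKM in every library of their table. The part of these changes in the keratin results was not tested.

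Libraries held 31.9 to 51.4 M reads, as worked out from the steps between RPKM values of short genes. The depth left about 18400 reads or more for each of Krt5, Krt14, Krt17 and Krt6a in every library. At this depth the 4 simple keratins rested on about 0 to 19 reads. In the T-5224 experiment Rn45s was at 3401 and 3473 RPKM in DMSO and at 1862 and 5184 RPKM with T-5224. Whether that spread bears on the keratins was not tested.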

How the data were processed

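RNA from ASZ001 cells was made into stranded mRNA libraries and sequenced by the authors. TopHat placed the reads on mm9, and HOMER gave the RPKM that the authors deposited. The strand setting and the handling of reads that match several genes are not given in the sources used here. Counts were not analysed here. Rows with a date for a gene symbol, 22 and 23, were not used. The labels number the DMSO samples of the T-5224 experiment 4 and 5, whereas its columns carry 1 and 2, so they entered as a group.

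Genes with a mean of at least 1 RPKM were tested in R 4.3.3 with limma 3.58.1. The scale was log2(RPKM + 0.5), variances were moderated along a trend with the mean, and p-values were adjusted by the Benjamini-Hochberg method over all genes tested. A gene passed at an adjusted p under 0.05, and a fold change beyond 2 was counted separately. Ratios and shares per library were tested by exact two-sided permutation over libraries with scipy 1.17.1. Whether replicate numbers pair the samples is not known, and they were not used in the main fits.

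The 10 keratins and all lists were chosen with earlier results of these data known. Named were the 10 keratins, every other keratin with a mean of at least 1 RPKM in either table, the 3 most lowered and 3 most raised genes that passed in each related list, and the highest marker of each cell type. Asprv1, Dsg1a, Bfsp1, Cldn4, Epcam and Esrp1 were named outside this rule, after their values were seen. Positions and 50-base windows come from GENCODE on NCBIM37, the assembly of mm9. Reads behind a level were estimated from RPKM, the longest annotated transcript and the depth worked out from short genes, so they are approximate. Alternatives changed the pseudocount, the filter, the scaling, the trend and the replicate block, and left out each library in turn. The fits were tested on simulated data.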

Additional observations from a re-analysis of the deposited data

How the results depend on the processing

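Each tested keratin was read under each alternative setting, and each such pair of keratin and setting was counted once. With T-5224, the 6 tested keratins kept their direction in all 65 pairs, and their side of the threshold under every change of processing. With SB431542 they kept both in 70 of 83 pairs, leave-one-out fits included. With no limit on the fold change, 3 keratins in place of 0 counted as lower and 1 in place of 0 as higher with SB431542. With no filter on low values, Krt5 (adjusted p = 0.310) and Krt15 (adjusted p = 0.0614) no longer passed in limma, so 0 in place of 1 was higher at any fold. Leaving out single libraries moved that count between 0 and 1. Quantile normalization set the change of Krt5 with SB431542 to 0 by construction, since Krt5 is the top gene in every library. Krt10 reversed without SB431542 replicate 2 (log2 fold change -0.00199), and ranged from -0.00199 to 0.14 over the fits without single libraries. The difference in the share of simple keratins ranged from -0.00021 to 0.00092 percentage points with SB431542 and from -0.00035 to 0.0012 with T-5224 when single libraries were left out, and reversed without DMSO replicate 3, SB431542 replicate 1 or replicate 2, and without the DMSO library numbered 2 in the T-5224 table. The cause was not tested.

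With the replicate block, which pairs SB431542 and DMSO libraries of the same number, Krt5 kept its log2 fold change of -0.30 and no longer passed (limma adjusted p = 0.0653), 2 keratins were lower and 1 higher at any fold, and no other keratin changed its call. Correlations of deviations were -0.148, 0.151 and -0.0949 between libraries of the same number, and from -0.171 to 0.196 between libraries of different numbers. Deviations from a mean of 3 libraries depend on each other, so these values cannot show whether the samples were paired. In the T-5224 experiment the labels give the groups no replicate number in common, and a block on the numbers of the columns was not run.

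Median centring moved the log2 fold changes by at most 0.01. With 2 libraries a group in the T-5224 experiment, leaving out 1 library left a lone sample that was assumed to vary like the others. The approximate reads limit what can be said of Krt7, Krt8, Krt18 and Krt19.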
